A study of Rattus norvegicus with 24 samples.

Results

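The 6 genes described here were the cardiac transcription factors Gata4, Hand2 and Nkx2-5 and the stretch-responsive or force-bearing genes Ankrd1, Csrp3 and Des, measured in the left ventricle of rats with exercise or a high salt diet. They were chosen by symbol, as every probe set that the array's annotation pairs with 1 of these names alone, a rule that uses no measured value, although the genes themselves were picked with earlier results of these data known. The 6 stand among 4736 genes named alone on the array, and they gave 7 probe sets, 2 of them for Gata4, of 8740 without the array's own controls. All 7 were bright enough to be among the 6555 probe sets tested.

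Gata4 is a zinc finger protein, Nkx2-5 a homeodomain protein and Hand2 a basic helix-loop-helix protein, and the 3 act together on the promoters of many genes of the heart muscle cell, the natriuretic peptides among them. Ankrd1 (CARP) is an ankyrin repeat protein that sits on the titin spring of the sarcomere and in the nucleus and is known to rise when heart muscle is stretched. Csrp3 (muscle LIM protein) belongs to the Z-disc, where force passes between sarcomeres. Des encodes desmin, the intermediate filament that ties neighbouring Z-discs to each other and to the cell membrane.

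All animals were Dahl salt-sensitive rats, which develop hypertension when fed much salt. They came into the study aged 5 weeks, and diet or running started when they were aged 6 weeks. High salt rats ate chow with 6% NaCl and gave 3 arrays each at 3, 6 and 15 weeks. Exercised rats ran daily on a treadmill over 6 weeks, in the end for 90 minutes a day at 16 m/min with the belt tilted by 5 degrees, and gave 1 array at 3 weeks and 3 at 6 weeks. Controls were sedentary rats of the same age on normal chow, with 1 array at 3 weeks and 3 each at 6 and 15 weeks. A further 2 arrays of 3 weeks stood under the control and the exercise label alike; they were used only where control and exercise were joined as the 4 non-salt arrays of 3 weeks, and the other comparisons rest on 20 of the 22 distinct arrays. The labels used here say neither from when the weeks were counted nor that each array came from its own animal, so the p-values refer to the spread among the arrays, which may be technical.

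Values are the deposited linear intensities, which have no physical unit and can be compared between arrays for 1 probe set but not between probe sets. Changes are differences of group means of log2(intensity + 40) with their standard error (SE), from a limma fit over all tested probe sets. A probe set was called at a Benjamini-Hochberg adjusted p under 0.05 over the 6555 probe sets. Of 12 ventricular myocyte markers 9 were measured, none at 0, and their intensities summed to between 177255 and 305252 on every array, while 7 skeletal muscle markers summed to at most 1110. RNA of a whole ventricle cannot tell fewer cells of a type from less RNA per cell.

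The RNA of the 6-week controls stood apart. The ratio of the probe set at the 3' end of GAPDH to the one at its 5' end, which is high where transcripts are broken or incompletely copied, was 1.58, 2.48 and 3.99 on the 3 control arrays of 6 weeks. It was 1.09, 1.52 and 1.58 on the control arrays of 15 weeks and between 0.989 and 1.18 on the other 16 distinct arrays. Results against the 6-week controls are therefore given again with the log2 of this ratio added to the model as a covariate. At 6 weeks every control had a higher ratio than every treated array, so this covariate is hard to separate from the control group. The same results are given once more with the controls of 3 and 15 weeks in place of those of 6 weeks. That baseline is 1 array of 3 weeks and 3 of 15 weeks, so it also differs in time from the treated arrays.

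Against the controls of 6 weeks, 5 of the 7 probe sets rose on high salt (both of Gata4, Hand2, Ankrd1 and Des), where 14.4% of all tested probe sets were called and 6.64% rose. Exercise against the same controls raised 2 of the 7 (Hand2 and Des), beside 7.83% of all tested probe sets called and 4.47% that rose. None of the 7 passed in either comparison once the GAPDH ratio was in the model, and none passed against the controls of 3 and 15 weeks. At 15 weeks none of the 7 passed on high salt in limma, where 7.2% of all tested probe sets did, although all 7 changes were positive and 3 (Hand2, Nkx2-5 and Csrp3) had an unadjusted limma p under 0.05, as did 1285 of the 6555. High salt separated from the 6-week controls without overlap on 4 of the 7 (10.5% of all tested probe sets did so upward), and exercise on 2 of the 7, Hand2 and Nkx2-5 (10.9%). Ankrd1 and Csrp3 were the members whose high salt arrays most often stood above the other arrays of their week, Ankrd1 in 8 of 9 arrays and Csrp3 in 7 of 9. Gata4 rc_AI234969_s_at followed with 6 of 9. Nkx2-5, Des and Gata4 L22761_at had 4 of 9 each and Hand2 3 of 9. Of all tested probe sets, 1.16% reached at least 8 of 9 in this direction, 2.5% at least 7 of 9 and 4.73% at least 6 of 9.

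**Figure D1:**
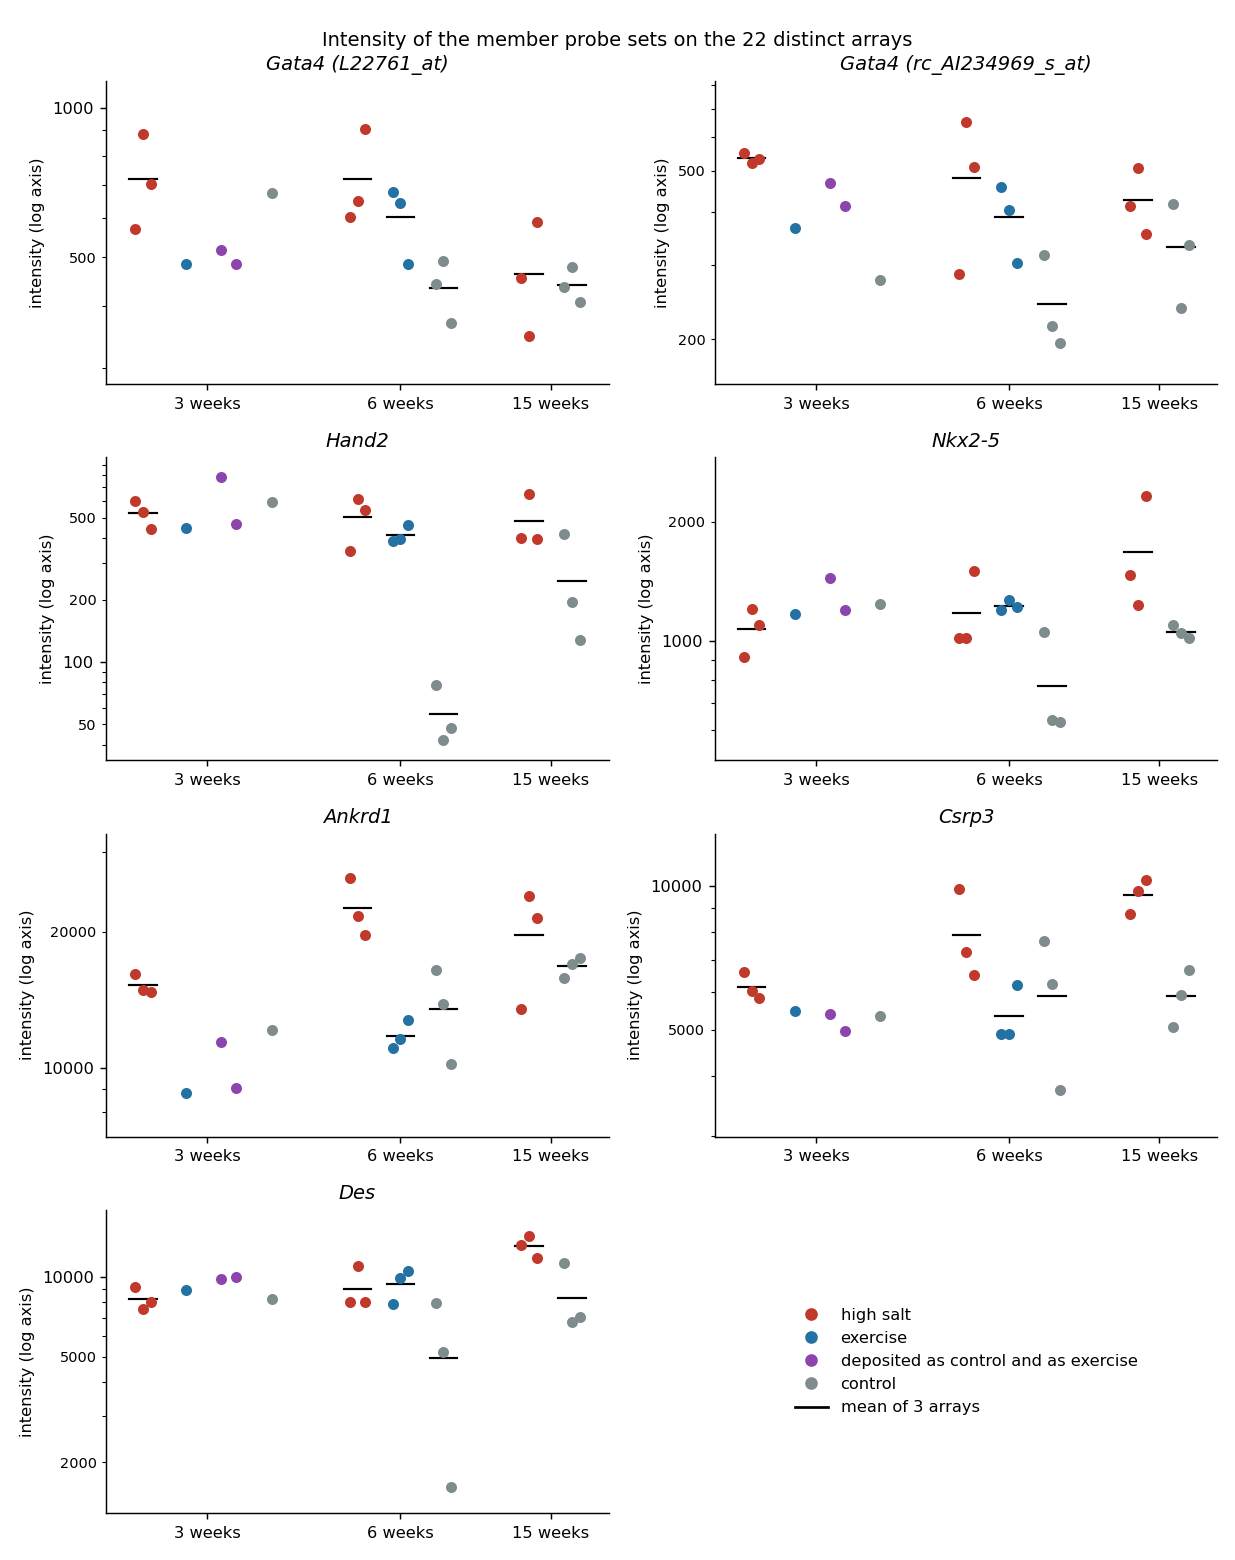
Intensity of the 7 probe sets (log axis, 1 panel each) on the 22 distinct arrays at 3, 6 and 15 weeks. Points are arrays, coloured by treatment, with the 2 arrays of both labels in purple, and bars are means of 3 arrays. Hand2 lies between 42 and 77.7 on the 6-week controls and at 128.6 or above on every other array, and Ankrd1 on high salt lies above the other arrays of its week except on 1 array of 15 weeks.

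Hand2, which helps to form the right ventricle and stays on in the adult myocyte, had the largest change of the 7 probe sets. Its intensity was 344.9, 617.7 and 545.9 on high salt at 6 weeks and 385.2, 394.2 and 461.3 with exercise at 6 weeks, against 77.7, 42 and 48 in the controls of 6 weeks. Every treated array was far brighter than the brightest of these controls. The control values were low for their arrays, between percentiles 26.1 and 36.9 of the probe sets, and near the 40 added before log2. The size of the Hand2 change therefore depends on that offset. The log2 change was 2.48 ± 0.30 on high salt (SE, n = 3 each, limma adjusted p = 0.000123) and 2.26 ± 0.30 with exercise (SE, n = 3 each, limma adjusted p = 0.000753). High salt and exercise at 6 weeks differed from each other by 0.23 ± 0.30 in Hand2 (95% interval -0.40 to 0.85), and their arrays overlapped.

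At 3 weeks Hand2 read 601.9, 530.2 and 442 on high salt, 444.3 on the exercise array, 781.8 and 467.8 on the 2 arrays with both labels and 594.5 on the control. These arrays overlapped, and the change on high salt against the 4 non-salt arrays was -0.094 ± 0.28. At 15 weeks it read 398.2, 647.1 and 395.7 on high salt, against 416.5, 196.1 and 128.6 in controls. Here 1 control lay among the high salt arrays and the other two below them, and the change of 0.95 ± 0.30 missed the threshold (adjusted p = 0.0617). Without that control, the array with the lowest GAPDH ratio of the 3, the change was 1.35 with an adjusted p of 0.00471. Without control 3 it was 0.63, the smallest change with 1 array left out. It passed in 3 of 16 alternatives.

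Hand2 was thus at a similar intensity in every high salt group, with means of 525, 503 and 480 at 3, 6 and 15 weeks, and the groups that stood low were the controls of 6 and 15 weeks. In those 6 controls the intensity was lower where the GAPDH ratio was higher, apart from the last pair: 416.5 at a ratio of 1.09, 196.1 at 1.52 and 128.6 at 1.58 at 15 weeks, and 77.7 at 1.58, 42 at 2.48 and 48 at 3.99 at 6 weeks. Controls of 15 weeks were above controls of 6 weeks by 1.47 ± 0.30 (adjusted p = 0.0324), a comparison in which 0.87% of all tested probe sets were called, 6.07% lay higher at 15 weeks without overlap, and Hand2 was the only member called or separated. That call was lost without control 1 of 15 weeks (1.08, adjusted p = 0.123) and without control 2 (1.37, 0.202) or control 3 of 6 weeks (1.42, 0.138). With the ratio in the model the changes at 6 weeks were 1.68 ± 0.46 on high salt (adjusted p = 0.222) and 1.40 ± 0.48 with exercise (adjusted p = 0.562). With controls of 3 and 15 weeks as the baseline, the differences were 0.69 ± 0.33 (adjusted p = 0.425) and 0.47 ± 0.33 (adjusted p = 0.789). The part of RNA quality in the low Hand2 of these controls cannot be told apart from that of the group at 6 weeks, where every control has a ratio above that of every treated array.

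The promoters of Hand2 and Des are shown because these are the members called against the 6-week controls both on high salt and with exercise. They are the 250 bases before the start site in RefSeq's rat assembly GRCr8, for Hand2 on the minus strand at chr16:37931489-37931738 and for Des on the plus strand at chr9:84299376-84299625. Of the 6 genes, 3 had an entry in the promoter table used here, Nkx2-5 being the other one. Capitals mark the matches, on either strand, to the GATA motif (AGATA or TGATA), the NKE of Nkx2-5 (AAGTG) and the E-box (CANNTG), the motif family bound by Hand2.
Hand2 promoter: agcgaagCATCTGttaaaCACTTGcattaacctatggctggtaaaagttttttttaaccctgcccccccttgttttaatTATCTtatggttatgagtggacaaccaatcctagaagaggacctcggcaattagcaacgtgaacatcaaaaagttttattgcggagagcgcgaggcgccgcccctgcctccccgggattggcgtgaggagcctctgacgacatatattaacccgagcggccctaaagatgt
Des promoter: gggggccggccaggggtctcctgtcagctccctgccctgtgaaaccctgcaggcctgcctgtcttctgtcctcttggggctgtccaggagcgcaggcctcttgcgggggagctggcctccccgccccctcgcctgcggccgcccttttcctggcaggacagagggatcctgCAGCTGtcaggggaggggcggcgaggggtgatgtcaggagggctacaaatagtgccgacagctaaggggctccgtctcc
The Hand2 window held 2 E-boxes, 1 GATA motif and 1 NKE, and the NKE lay within the second E-box. The Des window held 1 E-box and neither of the other motifs. The MCAT motif (CATTCC), the TATA box (TATAAA) and the CArG box were searched as well and had no match in either window. Of 33469 promoters cut the same way, 65.5% held an E-box, 41.3% the GATA motif, 40.6% the NKE, 12.1% the MCAT motif, 12.9% the TATA box and 1.5% the CArG box.

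Gata4, which with Hand2 and Nkx2-5 drives the natriuretic peptide genes, was read by 2 probe sets whose log2 values correlated at r = 0.46 over the 20 arrays, and they are given separately. Probe set L22761_at read 602.1, 650 and 904.9 on high salt at 6 weeks and 677.8, 642.1 and 485.6 with exercise, against 441.7, 490.8 and 368.9 in controls. Probe set rc_AI234969_s_at read 284.7, 652.2 and 509.7 on high salt and 457.7, 405.1 and 303.2 with exercise, against 316.6, 215.3 and 196.1 in controls. On L22761_at the high salt arrays lay above all controls, while on rc_AI234969_s_at 1 high salt array lay below the highest control.

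On high salt at 6 weeks Gata4 rose by 0.67 ± 0.22 on L22761_at (adjusted p = 0.0483) and by 0.84 ± 0.26 on rc_AI234969_s_at (adjusted p = 0.0366). Exercise gave 0.43 ± 0.22 and 0.61 ± 0.26, and neither passed. The high salt calls rest on single arrays: without 1 array at a time the adjusted p of L22761_at reached 0.221 (without high salt 3), and it was above the threshold without any of the 3 controls (0.0628, 0.0723 and 0.176) and without high salt 2 (0.0765). For rc_AI234969_s_at the adjusted p was 0.119 without control 2, 0.147 without control 3, 0.175 without high salt 2 and 0.129 without high salt 3. With the GAPDH ratio in the model the changes on high salt were 0.49 and 0.15, and with controls of 3 and 15 weeks as the baseline 0.50 and 0.51, none of them called.

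At 3 weeks L22761_at read 571.2, 885.1 and 702.3 on high salt, 486.2 with exercise, 518.4 and 485.1 on the arrays with both labels and 675.3 in the control. On rc_AI234969_s_at the values were 550.7, 521 and 533.4 on high salt, 365.6 with exercise, 466.8 and 414.1 on the arrays with both labels and 275.6 in the control. The second probe set separated high salt from all 4 non-salt arrays, the first did not, and neither change (0.38 ± 0.20 and 0.47 ± 0.24) passed. At 15 weeks the values were 455.7, 348.3 and 588.3 on high salt against 435.6, 477.4 and 407.3 in controls on L22761_at, and 412.6, 508.9 and 355.2 against 417.2, 237.4 and 334.3 on rc_AI234969_s_at. Both sets of arrays overlapped, with changes of 0.045 ± 0.22 and 0.35 ± 0.26. On L22761_at every high salt array of 15 weeks lay below every one of 6 weeks, a change of -0.60 ± 0.22 that did not pass (adjusted p = 0.197, where 8.45% of all tested probe sets separated in this direction), and rc_AI234969_s_at gave -0.11 ± 0.26.

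Nkx2-5, the homeodomain factor that marks the heart field and maintains the adult myocyte, did not pass in any of the comparisons. It read 1021.8, 1019.1 and 1502.8 on high salt at 6 weeks and 1201.6, 1273 and 1216.6 with exercise, against 1054.7, 635.9 and 628.8 in controls. Control 1 of 6 weeks, the one with the lowest GAPDH ratio of its group, was level with the 2 lower high salt arrays, and the other two controls lay below every other array of the series. The changes were 0.60 ± 0.23 on high salt (adjusted p = 0.0861) and 0.68 ± 0.23 with exercise (adjusted p = 0.0739). Without control 1 they were 0.84 and 0.92 and passed (adjusted p = 0.0164 and 0.0138). Leaving out 1 array at a time, they ran from 0.42 to 0.84 and from 0.56 to 0.92. With the ratio in the model they were 0.070 and 0.12, and neither passed.

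At 3 weeks Nkx2-5 read 911.4, 1204.5 and 1098.6 on high salt, 1172.2 with exercise, 1442.7 and 1199.7 on the arrays with both labels and 1240.8 in the control, with overlap. At 15 weeks it read 1466.6, 1232.7 and 2318.3 on high salt against 1101.6, 1051.6 and 1017.1 in controls. All 3 high salt arrays were above all 3 controls, with 1 of them far above the other two. The change of 0.59 ± 0.23 did not pass (adjusted p = 0.142), and without high salt 3 it was 0.34. Csrp3 and Des also separated at 15 weeks, so 3 of 7 probe sets were higher without overlap, beside 8.41% of all tested probe sets.

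Ankrd1 was higher on high salt than in the non-salt arrays at 3 and 6 weeks in every array, and its difference with exercise was not positive. At 3 weeks it read 16115.1, 14842.9 and 14720 on high salt, against 8832.7 with exercise, 11431.9 and 9029.9 on the arrays with both labels and 12123.8 in the control. At 6 weeks it read 26318.9, 21622.2 and 19675.3 on high salt and 11052.7, 11575.2 and 12775.3 with exercise, against 16463.7, 13832.3 and 10202.4 in controls. In both weeks every high salt array was above every other array, and the exercise arrays of 6 weeks lay within the range of the controls. These controls fell as their GAPDH ratios rose, with 16463.7 at 1.58, 13832.3 at 2.48 and 10202.4 at 3.99. Those of 15 weeks went the other way, from 15834.5 at 1.09 to 17490.8 at 1.58.

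The change of Ankrd1 on high salt at 6 weeks was 0.92 ± 0.20 against exercise, a comparison free of the 6-week controls, and 0.75 ± 0.20 against control (adjusted p = 0.0166). Against exercise it ranked 10 by p among the 6555 probe sets but did not pass (adjusted p = 0.130), in a comparison where 0.0153% were called. Ankrd1 and Csrp3 were the members that separated there, and 5.46% of all tested probe sets were higher on high salt without overlap. The call against control was lost without control 3 (0.57, adjusted p = 0.104) and without high salt 1 (0.64, adjusted p = 0.063), and with the GAPDH ratio in the model the change was 0.36 ± 0.32. With controls of 3 and 15 weeks as the baseline it was 0.53 ± 0.20 (adjusted p = 0.292). Exercise against control gave -0.17 ± 0.20 (95% interval -0.59 to 0.25).

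At 3 weeks the change of Ankrd1 on high salt against the 4 non-salt arrays was 0.57 ± 0.18, which did not pass (adjusted p = 0.338), in a comparison where 0.153% of all tested probe sets were called. Ankrd1, Csrp3 and the Gata4 probe set rc_AI234969_s_at separated high salt from non-salt there, beside 6.13% of all tested probe sets. Over time on high salt Ankrd1 was higher at 6 than at 3 weeks in every array, by 0.56 ± 0.20, which did not pass (adjusted p = 0.873); 0.0763% of all tested probe sets were called and 5.72% were higher without overlap.

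At 15 weeks Ankrd1 read 13516.6, 24013.9 and 21437.9 on high salt against 15834.5, 17007.1 and 17490.8 in controls. High salt 1 lay below all 3 controls and the other two above them, and the change was 0.19 ± 0.20. The difference between the salt effects at 15 and at 6 weeks was -0.57 ± 0.29 (adjusted p = 0.346), so the data do not show that they differ. The controls themselves averaged 16778 at 15 weeks and 13500 at 6 weeks, and the non-salt arrays of 3 weeks 10355.

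Csrp3 was higher on high salt without overlap at 3 and 15 weeks, and at 6 weeks against exercise but not against control. At 3 weeks it read 6612.2, 6028.9 and 5818.9 on high salt, against 5459.3 with exercise, 5390.5 and 4971.3 on the arrays with both labels and 5348.8 in the control. The groups separated by a narrow gap, with a change of 0.21 ± 0.19. At 6 weeks it read 9847.9, 7274.5 and 6505.4 on high salt and 4905.7, 4891.6 and 6185 with exercise, against 7668.9, 6225.2 and 3735.1 in controls. High salt was above all exercise arrays but overlapped the controls. Values of these controls fell as their GAPDH ratios rose, the lowest at the ratio of 3.99. The controls of 15 weeks went the other way, with 5068.9 at 1.09, 5916.7 at 1.52 and 6665.7 at 1.58. The change at 6 weeks was 0.55 ± 0.22 against exercise (adjusted p = 0.612) and 0.46 ± 0.22 against control (adjusted p = 0.168). With the ratio in the model it was -0.13 ± 0.33 against control. Leaving out 1 array at a time, the change against control ran from 0.17 without control 3 to 0.68 without control 1. It passed in the last of these alone (adjusted p = 0.0348), 1 of 17 alternatives.

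At 15 weeks Csrp3 read 8712, 9771.1 and 10276.6 on high salt against 5068.9, 5916.7 and 6665.7 in controls. The gap between the groups was wider than the range within either, and the change was 0.71 ± 0.22, just short of the threshold (adjusted p = 0.0565). It passed in 5 of 16 alternatives, among them quantile normalization (adjusted p = 0.0317) and the fit of the 2 groups alone (0.0441). With the GAPDH ratio in the model it was 0.56 ± 0.20 (adjusted p = 0.119). Markers of other cell types moved between the same groups, some down and some up. The 8 fibroblast markers summed to between 11218 and 21523 on high salt, against 26000 to 35127 in controls. The 6 leukocyte markers summed to between 3299 and 4077 on high salt, against 4508 to 4943 in controls. The 4 smooth muscle markers other than Des summed to between 2325 and 2894 on high salt, against 3787 to 5093 in controls. Upward went 3 red blood cell markers, with sums between 31916 and 39002 on high salt, against 18166 to 24499 in controls. So did 4 atrial markers, Nppa among them, with sums between 36399 and 47623, against 15843 to 18054. The part of these cell types in the Csrp3, Nkx2-5 and Des values of 15 weeks was not tested.

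Des had similar intensities in all groups up to 6 weeks apart from the 6-week controls. At 3 weeks it read 9181.6, 7574 and 8034.7 on high salt, 8903.5 with exercise, 9805.2 and 10008.4 on the arrays with both labels and 8271 in the control, with overlap and a change of -0.16 ± 0.32. At 6 weeks it read 8010.9, 10959.8 and 8040.9 on high salt and 7880.2, 9870 and 10488.2 with exercise, against 7957.6, 5209.4 and 1612.3 in controls. High salt lay above the highest control by a narrow margin, 1 exercise array lay below it, and the controls fell in the order of their GAPDH ratios.

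Des rose by 1.12 ± 0.36 on high salt at 6 weeks (adjusted p = 0.0429) and by 1.19 ± 0.36 with exercise (adjusted p = 0.0484). Without control 3, which has the ratio of 3.99, the changes were 0.47 (adjusted p = 0.253) and 0.53 (adjusted p = 0.244). The calls were also lost without control 2 (adjusted p = 0.0553 on high salt and 0.0671 with exercise) and without any single high salt array (0.0563, 0.143 and 0.0845) or exercise array (0.0658, 0.128 and 0.139). With the GAPDH ratio in the model the sign turned, to -0.78 ± 0.31 on high salt and -0.83 ± 0.32 with exercise, and against the controls of 3 and 15 weeks the changes were 0.13 ± 0.33 and 0.20 ± 0.33. Desmin is also made by smooth muscle. The other 4 measured smooth muscle markers summed to between 2803 and 4409 on high salt and 2821 and 4200 with exercise at 6 weeks. In controls they summed to 4549 at the ratio of 1.58, 11035 at 2.48 and 7998 at 3.99. The part of smooth muscle in the Des values of 6 weeks was not tested.

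At 15 weeks Des read 13167.5, 14253.3 and 11718.4 on high salt against 11230.7, 6724.1 and 7065.2 in controls. All high salt arrays of 15 weeks were above every other array of the series, the nearest being control 1 of 15 weeks. The change against control was 0.68 ± 0.36 (adjusted p = 0.319), and 0.22 ± 0.19 with the GAPDH ratio in the model. On high salt, 15 weeks lay above 6 weeks by 0.54 ± 0.36 without overlap, which did not pass (adjusted p = 0.603), where 3.19% of all tested probe sets were called and 7.15% were higher without overlap.

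**Figure D2:**
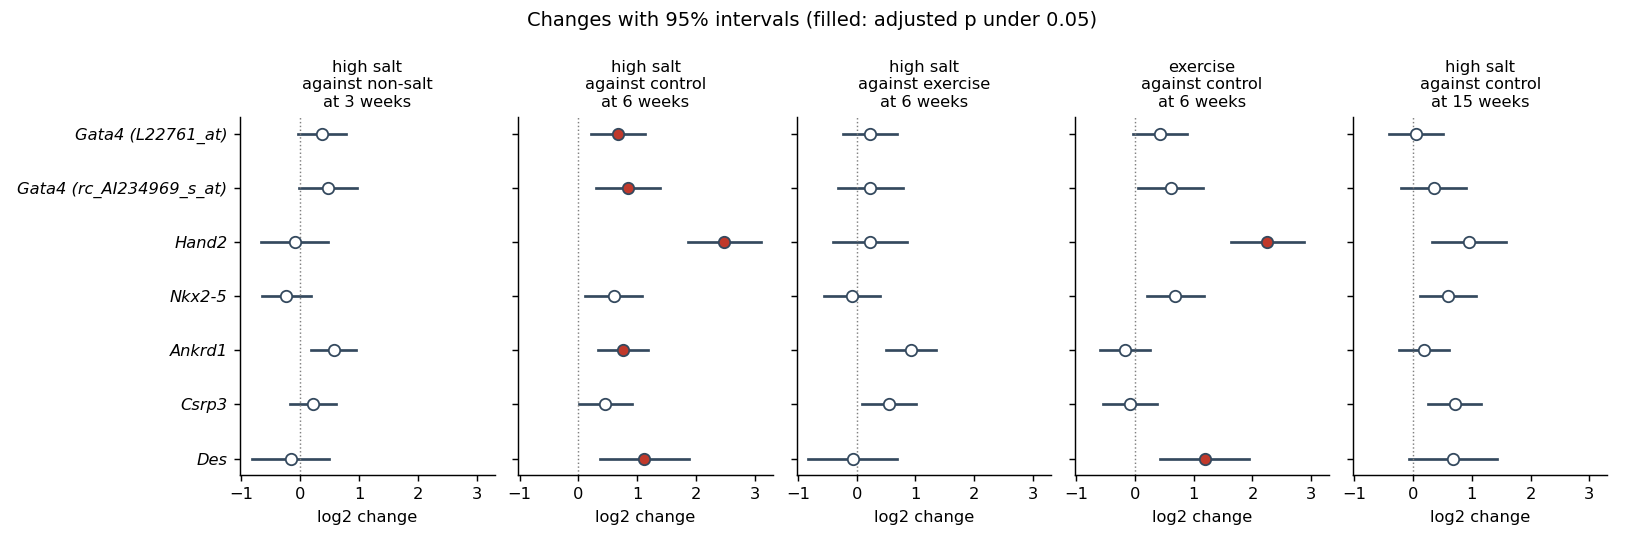
Log2 change of the 7 probe sets (rows) with its 95% interval in 5 comparisons (panels), filled where the limma adjusted p was under 0.05. On high salt against control at 6 weeks 5 probe sets are filled and with exercise 2, and none is filled at 3 weeks, at 15 weeks or on high salt against exercise.

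**Figure D3:**
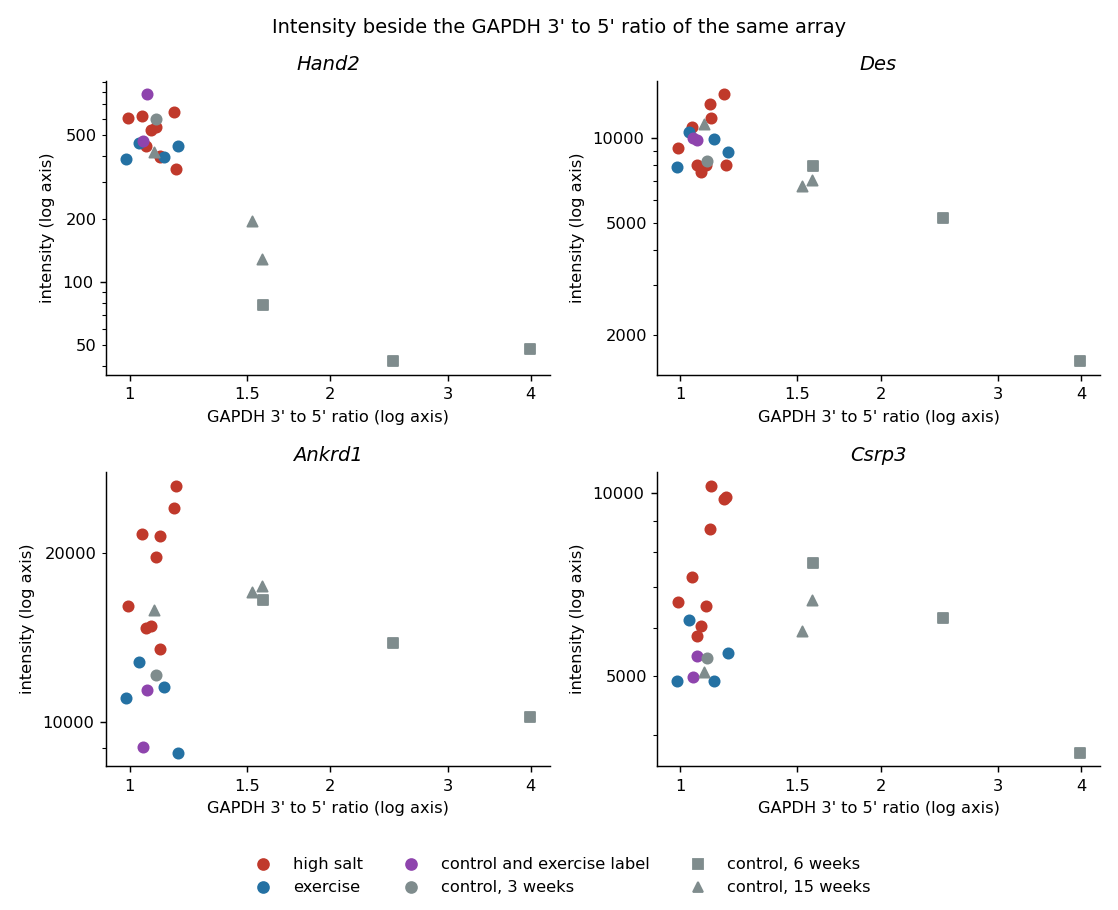
Intensity of Hand2, Des, Ankrd1 and Csrp3 (log axis) beside the GAPDH 3' to 5' ratio of the same array (log axis), 1 point for each of the 22 distinct arrays. The 6-week controls (squares) lie at ratios of 1.58, 2.48 and 3.99 and 2 of the 15-week controls (triangles) at 1.52 and 1.58, while all other arrays lie at 1.18 or below.

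**Figure D4:**
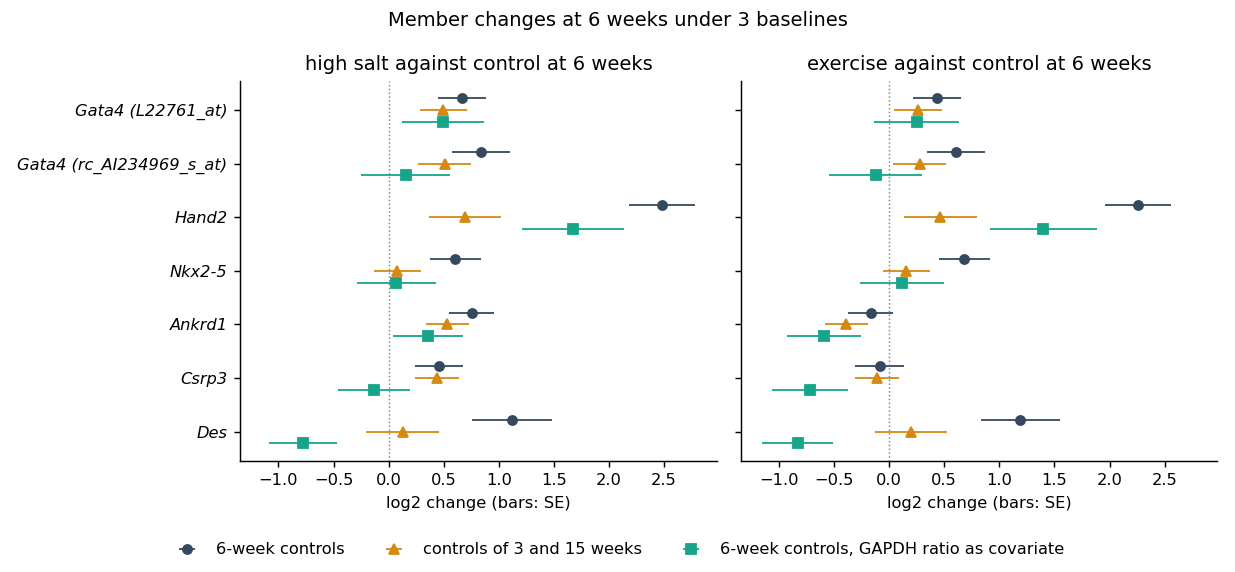
Log2 change of the 7 probe sets with its SE on high salt (left) and with exercise (right) at 6 weeks under 3 baselines. Hand2 on high salt is 2.48 against the 6-week controls, 0.69 against the controls of 3 and 15 weeks and 1.68 with the GAPDH ratio in the model, and Des turns to -0.78 with the covariate.

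The order of the 7 group means differed between the genes, with the non-salt arrays of 3 weeks as 1 group. The highest mean was that of high salt at 3 weeks for both Gata4 probe sets, of high salt at 6 weeks for Ankrd1, of high salt at 15 weeks for Nkx2-5, Csrp3 and Des, and of the non-salt arrays of 3 weeks for Hand2. The controls of 6 weeks were lowest for both Gata4 probe sets, Hand2, Nkx2-5 and Des, and the non-salt arrays of 3 weeks were lowest for Ankrd1 and Csrp3. Neighbours in these orders overlapped, with 2 exceptions: controls of 15 weeks lay above controls of 6 weeks for Hand2, and high salt at 15 weeks lay above exercise at 6 weeks, the next mean, for Des. The spread over the 3 arrays of a group ran from a coefficient of variation of 2.79% (Gata4 rc_AI234969_s_at on high salt at 3 weeks) to 64.6% (Des in controls at 6 weeks).

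Set beside all tested probe sets, the median change of the 7 was 0.75 on high salt and 0.61 with exercise against control at 6 weeks, where the medians over all tested probe sets were -0.15 and -0.12. It was 0.59 on high salt against control at 15 weeks, where that of all tested probe sets was -0.043, and 0.21 at 3 weeks, where that of all tested probe sets was -0.055. The difference between the salt effects at 15 and at 6 weeks was negative for 6 of the 7, with -1.53 ± 0.42 for Hand2 (adjusted p = 0.0732), where 1.6% of all tested probe sets were called and no member was. Hand2 in that difference passed in 5 of 22 alternatives, with an adjusted p up to 0.524 in the others. With 1 array left out it ran from -1.85 to -1.13, the last without control 1 of 15 weeks. It passed without control 1 of 6 weeks (-1.69, adjusted p = 0.0348) or control 3 of 15 weeks (-1.85, 0.0224). It also passed without high salt 1 of 6 weeks (-1.76, 0.0414) or high salt 2 of 15 weeks (-1.75, 0.0403).

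A comparison of high salt with the non-salt arrays averaged over 3, 6 and 15 weeks, chosen after the data were seen and fitted on all 22 distinct arrays, called 4 of the 7, all of them higher, beside 13.4% of all tested probe sets called and 6.04% higher. Ankrd1 was higher by 0.53 ± 0.11 (adjusted p = 0.00208), Csrp3 by 0.47 ± 0.11 (adjusted p = 0.00526), Hand2 by 0.74 ± 0.16 (adjusted p = 0.00374) and Gata4 rc_AI234969_s_at by 0.45 ± 0.14 (adjusted p = 0.0313). In a further setting the 6-week controls were left out of the comparison, so that exercise alone was the non-salt group of 6 weeks. Those control arrays still entered the estimate of spread. There Ankrd1 (0.56 ± 0.11, adjusted p = 0.00539) and Csrp3 (0.49 ± 0.11, adjusted p = 0.0131) still passed, while Hand2 (0.36 ± 0.17) and Gata4 (0.35 ± 0.14) did not. With the GAPDH ratio in the model Ankrd1 alone passed (0.43 ± 0.12, adjusted p = 0.0407), and Csrp3 was at 0.33 ± 0.11 (adjusted p = 0.0994). Leaving out 1 array at a time ended no call of Ankrd1, Csrp3 or Hand2, and ended that of Gata4 rc_AI234969_s_at for control 2 and high salt 2 of 15 weeks (adjusted p = 0.0821 and 0.0549), control 1 and high salt 1 and 3 of 3 weeks (0.0595, 0.0578 and 0.0522) and high salt 2 and 3 of 6 weeks (0.0835 and 0.0638).

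The genes whose log2 values ran most like each member over the 20 arrays are given as a description, since the arrays share their groups and 3 of them are the 6-week controls with high GAPDH ratios. For Ankrd1 these were the small heat shock gene Hspb1 (r = 0.79), Csrp3 (0.78) and the slow myosin Myh7 (0.77), and over the 17 arrays without the 6-week controls Hspb1 (0.79) and Csrp3 (0.75) were again among the first 3. For Csrp3 they were the Z-disc filamin Flnc (0.88), Klhl41 (0.81) and the matrix gene Spp1 (0.80), and without those controls Flnc (0.88), Spp1 (0.88) and Nppa (0.88). For Hand2 they were Pgm1 (0.98), Cops7a (0.95) and Arf1 (0.94), the first 2 of which stayed first over 17 arrays (0.92 and 0.91). This holds for 1 probe set of Pgm1, and the other (rc_AA894296_at) did not follow Hand2, with means of 2574 on high salt and 3163 with exercise at 6 weeks, against 3188 in controls. For Des they were Smpx (0.92), Eef1a2 (0.92) and Ccng1 (0.91), none of which was among the first 3 over 17 arrays. For Nkx2-5 they were Penk, Cpd and Eif4ebp1 (0.88, 0.87 and 0.86), for Gata4 L22761_at Grb2, Rbbp7 and Fat1 (0.79, 0.79 and 0.77) and for Gata4 rc_AI234969_s_at Ola1, Syngr2 and Vldlr (0.91, 0.90 and 0.89). Over 17 arrays none of these stayed among the first 3 for Nkx2-5 or Gata4 rc_AI234969_s_at. For Gata4 L22761_at Grb2 alone stayed (0.82). Among the members themselves Hand2 and Gata4 rc_AI234969_s_at correlated at 0.74 over 20 arrays and 0.57 over 17. Des and Hand2 correlated at 0.71 over 20 arrays and 0.48 over 17, and Nkx2-5 and Hand2 at 0.61 and 0.13.

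Of 62 other cardiac transcription factors and cofactors on the list used here, 18 were measured. On high salt at 15 weeks 1 of the 18 passed (5.56%, beside 7.2% of all tested probe sets): Gata6, the close relative of Gata4 in the adult heart, rose by 1.14 ± 0.24 (adjusted p = 0.00645). It read 2140.8, 3084.4 and 2145.9 on high salt against 1441, 847.9 and 1023 in controls, a separation that Gata4 did not show in the same arrays, and its change was 1.14 with the GAPDH ratio in the model (adjusted p = 0.00987). The call of Gata6 was lost without control 2 (0.97, adjusted p = 0.0506). At 6 weeks 1 of the 18 fell on high salt (5.56%, beside 14.4% of all) and 2 with exercise (11.1%, beside 7.83% of all) against control, the stress-responsive zinc finger factor Klf9 in both (-1.47 ± 0.28 on high salt, with means of 1564 on high salt and 2192 with exercise against 4722 in controls, and a second probe set going the other way) and Klf4 with exercise (-0.57 ± 0.16). With exercise the call of Klf9 was lost without control 2 or 3 or exercise 2 or 3 (adjusted p = 0.151, 0.171, 0.105 and 0.109), and that of Klf4 without any of these or exercise 1 (0.0736 to 0.161). None of the 18 passed at 6 weeks with the GAPDH ratio in the model. The list's median was -0.20 on high salt at 15 weeks, beside -0.043 over all tested probe sets, and -0.27 at 6 weeks, beside -0.15.

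Of 64 other Z-disc, costamere and intermediate filament genes 29 were measured, and on high salt at 15 weeks 3 rose and 3 fell (20.7%, beside 7.2% of all tested probe sets). Those that rose were Pdlim5, a Z-disc LIM protein (2.11 ± 0.41), Csrp2, a relative of Csrp3 best known from smooth muscle (1.69 ± 0.35), and Itgb1, the beta chain of the integrins that anchor the costamere (1.13 ± 0.27). Trim63, the ubiquitin ligase MuRF1 of the M-line and Z-disc (-0.89 ± 0.21), and the focal adhesion kinase Ptk2 (-0.80 ± 0.22) were among those that fell. Without 1 array the 15-week call was lost for Itgb1 (control 1, adjusted p = 0.0642, and high salt 3, 0.0843), Trim63 (control 2, 0.0518) and Ptk2 (control 2, 0.187, control 3, 0.0702, high salt 1, 0.0828, and high salt 2, 0.0742). At 6 weeks 5 rose and 5 fell on high salt against control (34.5%, beside 14.4% of all), led by Hspb6 (1.42 ± 0.24), Pdlim3 (-1.02 ± 0.19), Trim63 (-1.02 ± 0.21), Lmna (-0.89 ± 0.20) and Hspb1 (0.79 ± 0.20, 1 of its 3 other probe sets going the other way). With exercise 1 rose (Hspb6, 0.95 ± 0.24, its other probe set going the other way) and 2 fell (Pdlim3, -1.02 ± 0.19, and Trim63, -0.99 ± 0.21), which is 10.3%, beside 7.83% of all. That of Hspb6 was lost without control 3 (0.59, adjusted p = 0.0943) or exercise 2 (0.88, 0.0725). None of the 29 passed at 6 weeks with the GAPDH ratio in the model or against the controls of 3 and 15 weeks. Averaged over all weeks 8 rose and 4 fell (41.4%, beside 13.4% of all). With the 6-week controls left out of that comparison 7 rose and none fell. The list's median was then -0.014, beside -0.048 over all tested probe sets.

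Of 27 genes known to be bound by Gata4, Nkx2-5 or Hand2 in heart 24 were measured, and the natriuretic peptide genes Nppa and Nppb, the fetal actin Acta1 and the gap junction gene Gja1 (connexin 43) made up most of the calls. On high salt at 15 weeks 3 rose, Nppa (2.41 ± 0.30), Acta1 (1.07 ± 0.18) and Gja1 (1.60 ± 0.46), and the growth factor gene Vegfa fell (-1.19 ± 0.24), 16.7% of the list beside 7.2% of all tested probe sets. The call of Gja1 was lost without control 2 or 3 or high salt 1 or 3 (adjusted p = 0.199, 0.146, 0.162 and 0.0762). At 6 weeks 5 rose on high salt against control, these 3 with Nppb (1.91 ± 0.28) and the calcium pump gene Atp2a2 (0.65 ± 0.20, 1 of its 3 other probe sets going the other way), and 2 with exercise, Nppa (1.19 ± 0.30) and Gja1 (1.78 ± 0.46), which is 20.8% on high salt, beside 14.4% of all, and 8.33% with exercise, beside 7.83%. The call of Atp2a2 was lost without control 2 or 3 or high salt 2 or 3 (adjusted p = 0.118, 0.137, 0.0543 and 0.180). With exercise, Gja1 was lost without any single array but control 1 (0.0525 to 0.0987) and Nppa without control 2 or 3 or exercise 1 or 3 (0.122, 0.0684, 0.0649 and 0.106). With the GAPDH ratio in the model 1 of the 24 rose on high salt at 6 weeks and none with exercise, and against the controls of 3 and 15 weeks 3 rose on high salt and none with exercise. On high salt at 3 weeks Nppb (1.68 ± 0.27), Acta1 (0.93 ± 0.16) and Nppa (1.62 ± 0.31) rose, 3 of the 24 beside 0.153% of all tested probe sets. Each of these calls was lost without any single high salt array, without the control or without the array numbered 3 of both labels (adjusted p = 0.0527 to 0.166), and those of Acta1 and Nppa also without the one numbered 2 (0.0728 and 0.0965). Against exercise at 6 weeks Nppb alone rose (1.73 ± 0.28), the only called probe set of that comparison. This call was lost without exercise 2 or 3 or high salt 2 or 3 (adjusted p = 0.176, 0.0794, 0.0924 and 0.177), with no filter (0.0749) and with quantile normalization (0.0557). The medians of the 24 were -0.073 at 15 weeks, 0.22 at 6 weeks and 0.021 at 3 weeks on high salt, beside -0.043, -0.15 and -0.055 over all tested probe sets.

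Of 29 load genes of the ventricle 26 were measured, several of them also among the bound genes. On high salt 4 rose and 2 fell at 15 weeks, 5 rose and 2 fell at 6 weeks and 3 rose at 3 weeks, and exercise raised 1 at 6 weeks (Nppa, with the losses given above). These are 23.1%, 26.9%, 11.5% and 3.85% of the list, beside 7.2%, 14.4%, 0.153% and 7.83% of all tested probe sets. With the GAPDH ratio in the model 1 rose and none fell on high salt at 6 weeks, and with controls of 3 and 15 weeks as the baseline 2 rose and none fell; with exercise none was called in either. Besides the genes already named, the matrix gene Spp1 (osteopontin, 2.85 ± 0.44) and the heme oxygenase gene Hmox1 (1.58 ± 0.29) rose and Tgfb1 (-1.18 ± 0.24) fell at 15 weeks, and at 6 weeks Igf1 (-1.28 ± 0.26, 2 of its 4 other probe sets going the other way) and Ace (-1.07 ± 0.26) fell. Both falls were lost with the ratio in the model (-0.59 ± 0.40 for Igf1 and -0.16 ± 0.36 for Ace) and against the other controls (-0.55 ± 0.24 and -0.39 ± 0.23), and that of Ace also without control 3 (adjusted p = 0.0615) or high salt 2 (0.0545). On high salt Nppa averaged 11674 at 3 weeks, 9999 at 6 weeks and 23511 at 15 weeks, and Nppb 5074, 6999 and 2999. Ankrd1 averaged 15226, 22539 and 19656 and Csrp3 6153, 7876 and 9587. The highest of these means was at 6 weeks for Ankrd1 and Nppb and at 15 weeks for Nppa and Csrp3. From 6 to 15 weeks on high salt Ankrd1 changed by -0.23 ± 0.20 (limma adjusted p = 0.713) and Csrp3 by 0.30 ± 0.22 (0.633). Neither passed, and the arrays of both weeks overlapped for each. The list's median on high salt was 0.068 at 15 weeks and 0.14 at 6 weeks, beside -0.043 and -0.15 over all tested probe sets.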

How the data were processed

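Left ventricular RNA was measured on a rat expression array with 8799 probe sets. The authors deposited 1 linear intensity per probe set and array in a table of 24 columns; the summary method is not given in the sources used here. Trimmed means of the deposited intensity columns (2% trimmed) lay between 500.767 and 501.021, so they were already scaled and were used as they stood. Groups came from the sample titles. Of the 24 columns, 4 held the same 2 arrays, once as controls of 3 weeks and once as exercised rats of 3 weeks.

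Values were transformed to log2(intensity + 40), 59 control probe sets were left out, and probe sets with a mean under the 25th percentile were not tested. Group means were fitted with limma 3.58.1 in R 4.3.3 (lmFit, eBayes with an intensity trend) and p-values adjusted by Benjamini-Hochberg. The script was checked on simulated data. No detection calls were used, and precision is limited by the few arrays. An exact permutation test of 3 against 3 arrays cannot go below p = 0.1 and was not used.

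Probe names came from the platform annotation (7006 probe sets with 1 symbol, 308 with several, 1426 with none). The members and gene lists were chosen with earlier results of these data known and support nothing independently. Members were always named. From each list, each gene read by its brightest tested probe set, up to 5 called genes with the smallest p were named, and for each member the 3 genes with the highest Pearson correlation.

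Alternatives were pseudocounts of 16 and 100, no filter, quantile normalization, the GAPDH ratio as a covariate, the replicate number as a block, the compared groups alone, each reading of the arrays with both labels, other controls at 6 weeks, and leaving out each array. The replicate numbers were shared across groups, and 1 of 12 same-numbered pairs correlated above 0.1 (range -0.23 to 0.13), so they were not taken to pair the arrays.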

Additional observations from a re-analysis of the deposited data

Results flagged for a closer look

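Among the genes of the lists, 4 had a salt effect that differed between 15 and 6 weeks by the test of the difference itself (limma, adjusted over all tested probe sets), and no member did. The difference (15 minus 6 weeks) was 1.38 for Pdlim3, 2.28 for Csrp2, -2.28 for Nppb and 1.71 for Ace. All 4 differences include the 6-week controls with their high GAPDH ratios. With that ratio in the model they kept their sign but none was called: 1.26 for Pdlim3 (adjusted p = 0.0753), 2.09 for Csrp2 (0.141), -1.68 for Nppb (0.0745) and 1.02 for Ace (0.274). In the fit of the compared groups alone Pdlim3 (0.0518), Csrp2 (0.0608) and Ace (0.0637) were not called. Csrp2 and Ace were also lost without control 1 of 15 weeks (0.0543 and 0.0533) or control 2 of 6 weeks (0.0558 and 0.0563), and Ace without high salt 2 of 6 weeks (0.0526).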

How the results depend on the processing

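Counts of the 7 member probe sets called changed with the processing as follows. On high salt against control at 6 weeks the count of 5 became 2 with no filter, 1 in the fit of the compared groups alone, and 0 with the GAPDH ratio in the model or with the controls of 3 and 15 weeks; without 1 array it ran from 1 to 6. With exercise the count of 2 became 1 with pseudocount 16, no filter or the compared groups alone, and 0 with the GAPDH ratio or the other controls; without 1 array it ran from 1 to 3. On high salt at 15 weeks the count of 0 became 2 with quantile normalization or all 24 columns and 1 with the compared groups alone or either reading of the arrays with both labels, and 0 to 1 without 1 array. For controls at 15 against 6 weeks the count of 1 became 0 with no filter, the GAPDH ratio or the compared groups alone, and 0 to 2 without 1 array. The difference of the salt effects gave 1 with all 24 columns and 0 to 1 without 1 array. Over all weeks the count of 4 became 1 with the GAPDH ratio and 2 with the 6-week controls left out of the comparison. It was 3 to 4 without 1 array. This comparison and its settings, and leaving out single non-salt arrays of 3 weeks, were chosen after seeing the data. With the replicate block the count on high salt at 6 weeks was 4, Gata4 L22761_at being lost (adjusted p = 0.0646).

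Signs turned, once the GAPDH ratio was a covariate, for Csrp3 (-0.13) and Des (-0.78) on high salt and Gata4 rc_AI234969_s_at (-0.12), Des (-0.83) and Hspb6 (-0.18) with exercise at 6 weeks, for Des on high salt against exercise (0.052), in controls over time (-0.39) and over all weeks (-0.14). Against the controls of 3 and 15 weeks Klf4 (0.083) and Hspb6 (-0.083) turned with exercise. Leaving out 1 array, uncalled changes crossed 0 for Gata4 L22761_at at 15 weeks (-0.13 to 0.22), Csrp3 with exercise (-0.38 to 0.13), Hand2 at 3 weeks (-0.20 to 0.059), and on high salt against exercise for Gata4 rc_AI234969_s_at (-0.0039 to 0.54), Nkx2-5 (-0.26 to 0.011) and Des (-0.22 to 0.014). The cause of these changes was not tested. Without control 1 of 6 weeks Des rose in controls over time (1.47, adjusted p = 0.00981), and without high salt 2 of 15 weeks Gata4 L22761_at was called over all weeks (0.35, adjusted p = 0.0371).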
